A study of Mus musculus with 8 samples.

Results

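The genes *Isg15*, *Ifit1*, *Ifit2*, *Ifit3*, *Rsad2*, *Oasl2*, *Ifi44*, *Irf7*, *Trim12a* and *Ifi27l2b* of the type I interferon response were described in liver of NZO and B6 mice. They are 10 of the 34779 genes and transcripts named on the array, and 13 probes carry their names (*Trim12a* is listed there as Trim12). The genes were chosen by name with their strain differences on these arrays already known, so the differences of the members are a description and carry no test. Total RNA from liver of 4 male NZO mice (strain NZO/HiBomDife, obese and prone to diabetes) and 4 male B6 mice (C57BL/6, lean) was labelled with Cy3 and hybridised to 1-colour Agilent arrays, 1 array per mouse. All mice were 6 weeks old and fed a diet with 45% fat, so both strains share age, sex and diet and differ across the genome. The 75th percentile of the processed signal, which sets the scale of each array, was 119 to 142 in NZO and 137 to 159 in B6, and 50.4% to 60.1% of the 59305 spots per array were well above background. The hepatocyte genes *Alb*, *Ttr*, *Apoa1*, *Cps1* and *Tat* were above background on every array, and 0 of the 5 differed between the strains by the thresholds given below.

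Type I interferons (interferon alpha and beta) are released when cells sense viral or misplaced nucleic acid. They bind the receptor IFNAR1/IFNAR2, the kinases JAK1 and TYK2 then pass the signal on, and transcription factors that include STAT2 and IRF9 bind the interferon-stimulated response element in the promoters of target genes. The induced genes encode proteins that block viral RNA and particles, and also IRF7, which amplifies interferon production. In liver both hepatocytes and Kupffer cells, the resident macrophages, respond to interferon, and a low level of these transcripts is present without infection.

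The core of the response element, GAAANNGAAA, was searched on both strands in the RefSeq promoter windows (GRCm38.p6, 250 bases before to 50 after each annotated start). It occurred in 3.44% of all 32851 windows and in 3.99% of 27025 genes. A window was given for 9 members, all but *Ifi27l2b*, and 5 of the 9 held the core: *Isg15*, *Ifit1*, *Ifit3*, *Rsad2* and *Trim12a*. Of the other interferon pathway genes listed below, 42 of 99 with a window held it. One stretch of 30 bases is shown for each of the 5, on the strand of the gene and with the matches in capitals, since the members that were higher and those that were lower in NZO can be compared in it.
Isg15, chr4:156200875-156200904, minus strand: tgccgtagGAAAAGGAAACCGAAACAGAAA
Ifit1, chr19:34640784-34640813, plus strand: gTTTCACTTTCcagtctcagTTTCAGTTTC
Ifit3, chr19:34583363-34583392, plus strand: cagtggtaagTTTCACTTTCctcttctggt
Rsad2, chr12:26456553-26456582, minus strand: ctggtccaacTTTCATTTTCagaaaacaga
Trim12a, chr7:104315466-104315495, minus strand: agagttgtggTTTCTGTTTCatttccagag
*Isg15* held 3 overlapping matches that begin between positions -78 and -66 from the annotated start, *Ifit1* held 2 at -104 and -85, and *Ifit3* held 2 at -156 and -122, of which the first is shown. The match of *Rsad2* begins at -120 and that of *Trim12a* at position 11, within the transcript. The windows of *Ifit2*, *Oasl2*, *Ifi44* and *Irf7* did not hold these letters. *Isg15*, *Ifit1* and *Rsad2*, which were higher in NZO, and *Trim12a*, which was lower, thus share the motif, which is a description of the reference sequence and not of binding.

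The response did not move as one between the strains. *Isg15*, *Ifit1*, *Rsad2* and *Ifi44* were between 1.71 and 3.91 times as high in NZO as in B6, *Ifit3* and *Irf7* lay above B6 by smaller amounts, *Ifit2* and *Oasl2* had nearly equal means, and *Trim12a* and *Ifi27l2b* were lower in NZO. Of the 13 member probes, 5 (of 4 genes) had a log2 difference of at least 0.7 toward NZO, 4 (of 2 genes) had one of at least 0.7 toward B6, and 4 (of 4 genes) lay between. Of those toward B6, the second *Trim12a* probe and both *Ifi27l2b* probes were above background on all 4 arrays in B6 alone. Among member probes above background on all 8 arrays, 5 were at least 0.7 higher and 1 at least 0.7 lower in NZO. Among all 27643 probes tested, 5.99% were at least 0.7 higher and 8.73% at least 0.7 lower in NZO. The 4 NZO arrays lay above all 4 B6 arrays for 6 member probes and below them for 4, the same 4 that were at least 0.7 lower. Of all probes, 11.4% and 10.6% did so. Since the members were chosen with these values known, nothing is read from their shares. The median log2 difference over the 13 probes was 0.40, and the median over all probes tested was 0.02. Over the 10 member probes above background on all 8 arrays the differences ranged from -1.86 to 1.97.

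**Figure D1:**
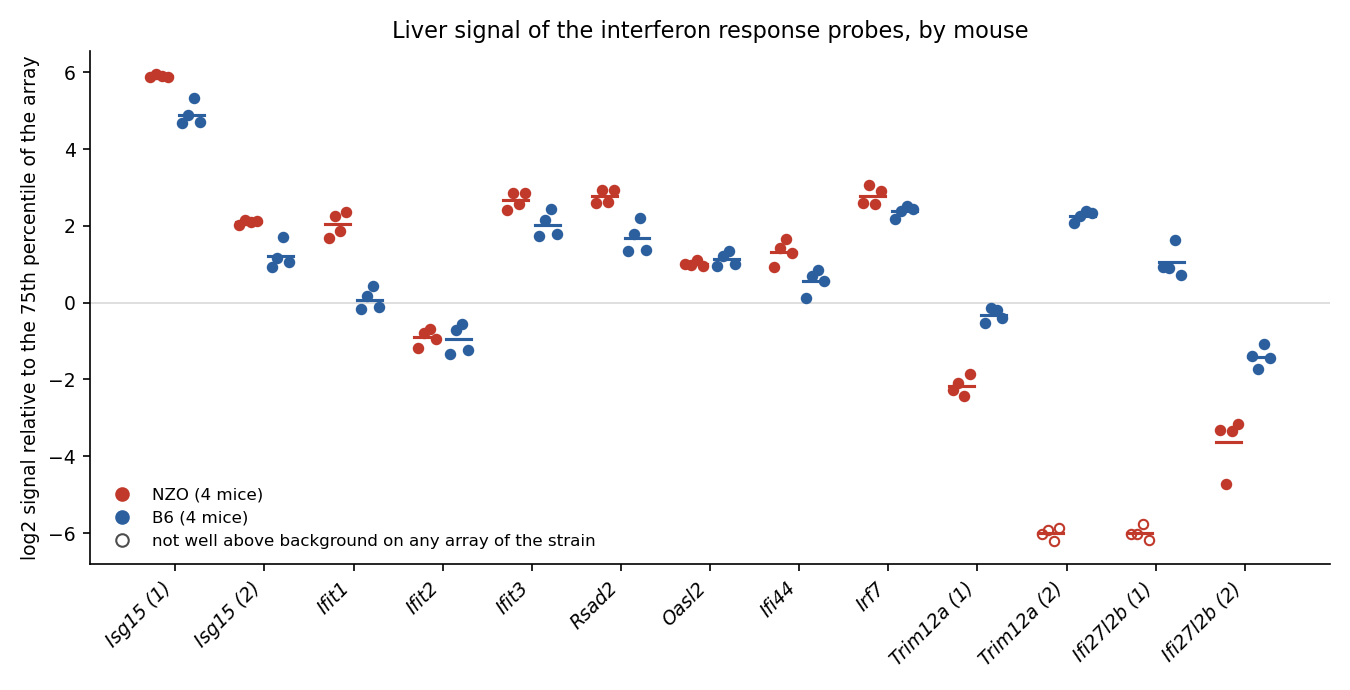
Signal of the 13 probes of the 10 genes in each mouse, on the log2 scale relative to the 75th percentile of the array (vertical axis), with 4 NZO mice (red) and 4 B6 mice (blue) per probe and a bar at each mean. Open circles mark a strain in which the probe was not well above background on any array. The red points lie above the blue ones for both *Isg15* probes, *Ifit1*, *Rsad2*, *Ifi44* and *Irf7* and below them for *Trim12a* and *Ifi27l2b*. Levels of different probes cannot be compared with each other.

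In what follows, values per mouse are log2 signals relative to the 75th percentile of the array, given for NZO mice 007, 003, 009 and 011 and then for B6 mice 011, 010, 015 and 009. Probe positions are those of the array files (mm9), and exons or untranslated regions were not annotated here. All 13 probes passed the filter on dim probes, for which either strain must exceed the background clearly on each of its 4 arrays, and 10 of them (9 genes) were above background on all 8 arrays. The second *Trim12a* probe and both *Ifi27l2b* probes passed it through B6 alone. Because whole liver was measured, fewer cells that express a gene and less RNA per cell cannot be told apart.

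*Isg15* encodes a small protein related to ubiquitin that is attached to other proteins and is also secreted. Its brighter probe (chr4:155573649-155573708, minus strand) read 5.89, 5.95, 5.90 and 5.87 in NZO and 4.68, 4.89, 5.32 and 4.70 in B6. The NZO mice lay within a narrow band (5.90 ± 0.04, SD, n = 4) that did not reach down to the B6 mice (4.90 ± 0.30, SD, n = 4), of which 015 was the highest. The difference was 1.01 ± 0.15 (SE) on the log2 scale, or 2.01-fold. The other probe (listed at chr4:155573533-155573552) differed by 0.89 ± 0.17, or 1.86-fold, again with no overlap. The brighter probe shares a run of 35 bases with a probe named for another gene, Gm9706, whose own difference was 1.07, so signal from that gene cannot be separated here. None of the other 12 member probes shared a run of 20 or more bases with a probe of another gene.

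The IFIT proteins bind viral RNA or the translation machinery and are among the most strongly induced products of interferon. *Ifit1* (chr19:34723796-34723855, plus strand) read 1.68, 2.27, 1.86 and 2.37 in NZO and -0.17, 0.17, 0.43 and -0.11 in B6. The lowest NZO mouse was 1.26 above the highest B6 mouse on the log2 scale. The difference was 1.97 ± 0.20 (SE), or 3.91-fold, and no member probe had a larger one toward NZO. *Ifit3* (chr19:34663105-34663164, plus strand) read 2.41, 2.87, 2.57 and 2.86 in NZO and 1.75, 2.15, 2.43 and 1.80 in B6, a difference of 0.65 ± 0.18 or 1.57-fold. NZO mouse 007 and B6 mouse 015 crossed, so its groups overlapped by that pair. *Ifit2* (chr19:34650244-34650303, plus strand) read -1.19, -0.79, -0.69 and -0.95 in NZO and -1.35, -0.70, -0.55 and -1.23 in B6. The NZO values of *Ifit2* lay within the range of its B6 values, with a difference of 0.05 ± 0.21, although the 3 genes lie in one cluster on chromosome 19.

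*Rsad2* encodes viperin, an enzyme that makes a chain-terminating nucleotide and thereby stops viral RNA synthesis. Its probe (chr12:27127859-27127918, minus strand) read 2.60, 2.95, 2.62 and 2.93 in NZO and 1.35, 1.78, 2.21 and 1.37 in B6. All NZO mice lay above all B6 mice, with a difference of 1.098 ± 0.21 (SE), or 2.14-fold. *Ifi44*, an interferon-induced gene with antiviral activity, was measured at chr3:151394035-151394094, minus strand. It read 0.93, 1.44, 1.65 and 1.31 in NZO and 0.13, 0.69, 0.85 and 0.57 in B6, a difference of 0.77 ± 0.20 or 1.71-fold. The groups of *Ifi44* were separated by only 0.09, between NZO mouse 007 and B6 mouse 015. *Oasl2*, of the family of the 2′-5′ oligoadenylate synthetases (sensors of double-stranded RNA), was measured at chr5:115362168-115362227, plus strand. It read 1.00, 0.97, 1.12 and 0.97 in NZO and 0.96, 1.20, 1.35 and 1.00 in B6, and the difference of -0.11 ± 0.11 was no larger than its standard error.

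*Irf7* encodes the transcription factor that drives interferon alpha production. Its probe (chr7:148450664-148451014, minus strand) read 2.59, 3.06, 2.57 and 2.90 in NZO and 2.17, 2.40, 2.52 and 2.44 in B6. The groups did not overlap, but only 0.05 lay between them, and the difference of 0.40 ± 0.14 (SE) corresponds to 1.32-fold.

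*Trim12a* and *Ifi27l2b* went the other way, by amounts that differed with the probe. *Trim12a* belongs to a cluster of tripartite motif genes on chromosome 7 that includes *Trim5* and *Trim30*, relatives of factors that restrict retroviruses. Its first probe (chr7:111452759-111452818, minus strand) was above background on all arrays and read -2.28, -2.10, -2.44 and -1.87 in NZO and -0.52, -0.15, -0.18 and -0.41 in B6. The difference was -1.86 ± 0.15 (SE), that is 3.63-fold lower in NZO. At its second probe (chr7:111448499-111448558) the B6 mice read 2.07, 2.25, 2.38 and 2.34, whereas all NZO mice lay between -6.21 and -5.88 and were not well above background. There NZO was at least 86.2-fold lower, a bound that here and below takes for each NZO array the larger of the probe's reading and the weakest reading on that array that exceeded background. Both probes point the same way but differ in size. Both sizes rest on how background was handled: the log2 differences of the first and second probe were -0.86 and -3.46 with normexp correction, which adds an offset of 50 to each signal, and both were also smaller in size in the deposited table, so the bound holds for the processed signal alone.

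*Ifi27l2b* belongs to a family of small interferon-inducible proteins of the mitochondrial and other membranes. Its first probe (chr12:104689132-104689191, minus strand) read 0.93, 0.91, 1.63 and 0.73 in B6 and between -6.17 and -5.78 in NZO, where no array was well above background. NZO was at least 37.3-fold lower in the processed signal, while the log2 difference was -2.49 with normexp correction and -3.70 in the deposited table. The second probe (chr12:104695364-104695423) read -3.32, -4.72, -3.34 and -3.17 in NZO, above background on 3 of the 4 arrays, and -1.40, -1.74, -1.07 and -1.44 in B6. The groups did not overlap, but as NZO mouse 003 was at background the size of the difference is not resolved: the means differed by -2.23 in the processed signal, by -0.53 with normexp correction, which is short of 0.7, and by -1.15 in the deposited table. For both genes the 2 probes lie at separate places, and whether sequence differences between the strains under the probes affect the signal was not tested.

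In B6 the members tended to be high and low in the same mice, although 4 mice are too few for a correlation. B6 mouse 015 was the highest of the 4 B6 mice for 12 of the 13 probes (*Trim12a* probe 1 was the exception) and B6 mouse 011 was the lowest for 11 of 13. The median deviation from the B6 mean was 0.35 in mouse 015, 0.07 in 010, -0.16 in 009 and -0.21 in 011 on the log2 scale. Over all 26814 probes above background on the 4 B6 arrays, mouse 015 was the highest for 24.6% and deviated by a median of -0.01. Among 100 other pathway genes, mouse 015 was the highest for 50 and 009 the lowest for 36. The 13 probes share arrays and 3 genes have 2 probes, so they are not independent of each other. *Ifi27l2b* followed this only at the top: its first probe read 1.63 in mouse 015 and no more than 0.93 in the other B6 mice, but its lowest mouse was 009 at the first probe and 010 at the second. Mice 015 and 010 shared a slide and the first scan day and mice 009 and 011 were scanned on the second, so the order of the B6 mice cannot be told apart from the scan day, except that 015 stood above 010 on their shared slide for 12 of the 13 probes.

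**Figure D2:**
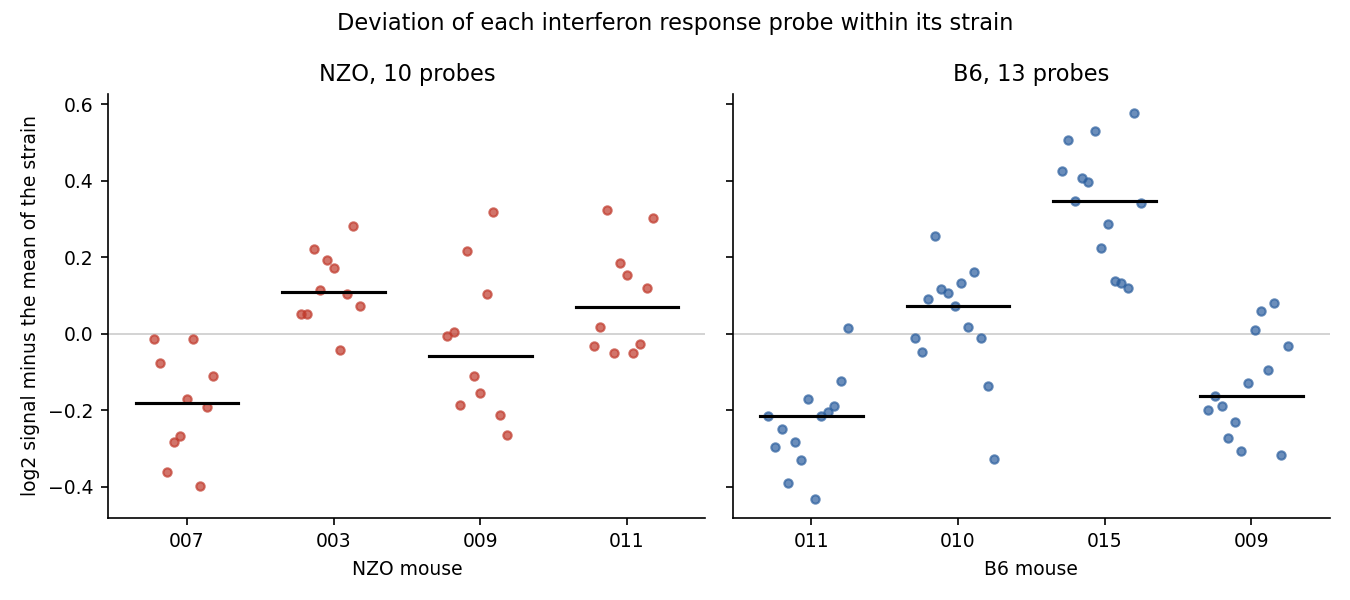
Deviation of each interferon response probe from the mean of its strain (vertical axis, log2) in each mouse, for 10 probes above background on all NZO arrays (left) and 13 probes on all B6 arrays (right), with a black bar at the median of the mouse. All 13 probes lie above the strain mean in B6 mouse 015 and 12 of 13 lie below it in B6 mouse 011, while the NZO mice spread less.

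In NZO, 10 probes could be followed. Mouse 003 was the highest for 5 of them and above the strain mean for 9, with a median deviation of 0.11, and mouse 007 was the lowest for 6 and never above the mean, with a median deviation of -0.18. Mouse 007 was also the only NZO mouse scanned on the second day. All 25279 probes above background on the NZO arrays showed the same tendency, with mouse 003 the highest for 37.4% and mouse 007 the lowest for 41.0%, and the number led by mouse 003 ranged from 1 to 9 with the scaling of the arrays. In B6, mouse 015 led 12 probes under normexp correction, quantile normalization and median centring. It led 9 in the deposited table, which has neither background subtraction nor scaling between arrays. The median SD of the 13 probes was 0.22 in NZO and 0.30 in B6, where it was 0.23 and 0.19 over all probes tested.

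The arrays came from 5 slides, of which 1 held both strains, and were scanned on 2 days that both held both strains. On the shared slide (NZO mouse 003 against B6 mice 010 and 015) *Ifit1* differed by 1.97, *Isg15* by 0.85 and 0.72, *Rsad2* by 0.95, *Ifi44* by 0.67, *Irf7* by 0.60 and *Ifit3* by 0.58 on the log2 scale. *Trim12a* differed there by -1.93 at its first probe. On the first scan day (3 NZO and 2 B6 mice) and the second (1 NZO and 2 B6 mice), *Ifit1* differed by 1.87 and 1.82, *Rsad2* by 0.84 and 1.24, *Ifi44* by 0.70 and 0.58 and *Trim12a* probe 1 by -1.97 and -1.82. These members kept their direction in each of the 3, which are not separate comparisons. The shared slide is part of the first scan day and holds all B6 mice of that day. The second day rests on 1 NZO mouse. The sign of *Ifit2* (-0.18 and 0.10) and of *Oasl2* (-0.26 and 0.02) turned between the scan days.

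The rest of the pathway was examined with 121 other genes in 8 lists, each gene by its brightest tested probe. A gene was called when limma's adjusted p over all tested probes was at most 0.05 and the log2 difference at least 0.7. Of 100 genes tested, 9 were higher and 7 lower in NZO, beside 4.45% higher and 4.99% lower of all 20139 genes tested (at the probe level 4.36% and 5.27%). The median log2 difference over the 100 genes was 0.05, against 0.03 over all genes. The deposited table holds raw intensities, neither background-subtracted nor scaled between arrays. In it 576 probes were higher and 1422 lower, in place of 1205 and 1456. When slide entered the fit as a fixed term, 3 pathway genes (*Mx1*, *Trim12c* and *Eif2ak2*) were higher and 5 lower, among them *Oas2*, which was called only there (-1.35, against -0.37 without the slide term). *Ifit3b*, *Trim34a*, *Ly6e*, *Oas1a*, *Dhx58*, *Tlr9*, *Pnpt1*, *Slfn2* and *Irf8* lost their call. Their strain difference then rests on the shared slide alone, that is on NZO mouse 003 and B6 mice 010 and 015. The log2 differences of *Ifit3b* (1.08), *Trim34a* (0.89), *Ly6e* (0.91), *Dhx58* (0.78), *Tlr9* (0.87) and *Irf8* (-0.73) were still at least 0.7 in size there, and those of *Oas1a* (0.56), *Pnpt1* (-0.55) and *Slfn2* (-0.61) were not. The p-values set the strain difference against the spread between 4 mice of each strain and no more. That spread is moderated by limma with the spread of all tested probes.

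**Figure D3:**
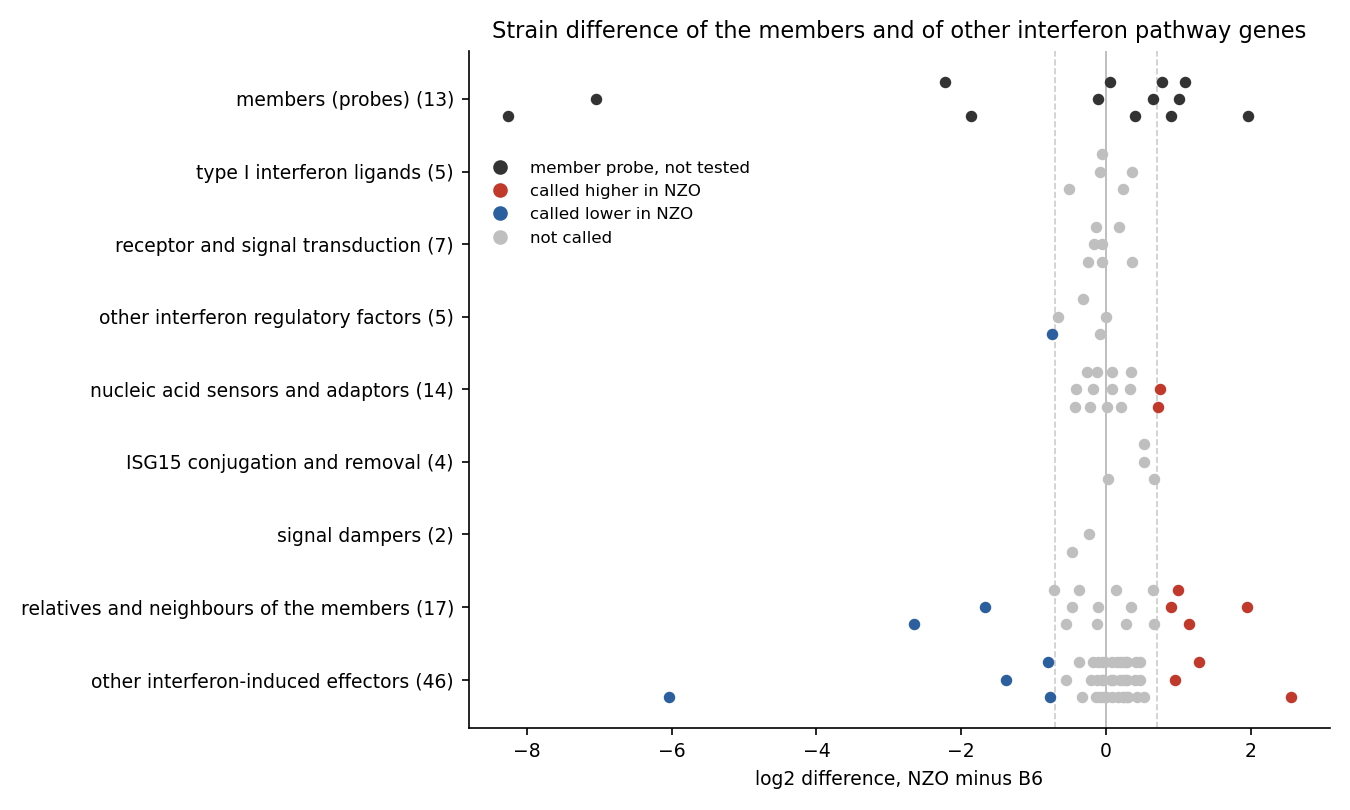
Log2 difference between NZO and B6 (horizontal axis) for the 13 member probes (dark) and for the tested genes of 8 lists of the interferon pathway, 1 point per gene, red where called higher, blue where called lower and grey where not called, with dashed lines at 0.7 in both directions. The number after each list is its count of points, and called genes lie on both sides of 0 among the relatives and among the other effectors.

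No call was made among the interferon ligands or the genes of the receptor and its signal. Of 16 interferon ligands 5 had a tested probe and 0 were called, with *Ifnab* at -0.05 ± 0.32 (SE, limma adjusted p = 0.936) and *Ifna1* at 0.36 ± 0.35 (adjusted p = 0.550), and the other 11 were not tested. Of the 7 genes of the receptor and its signal, 0 were called. *Ifnar1* differed by -0.06 ± 0.10 (adjusted p = 0.763), *Ifnar2* by -0.14 ± 0.11 (adjusted p = 0.425) and *Jak1* by -0.25 ± 0.10 (adjusted p = 0.145). *Tyk2* differed by -0.16 ± 0.12, *Stat2* by -0.06 ± 0.14 and *Irf9* by 0.19 ± 0.10, with adjusted p between 0.262 and 0.821.

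Among the other interferon regulatory factors *Irf8*, which directs the development of macrophages and dendritic cells, was lower in NZO (-0.75 ± 0.14, adjusted p = 0.00761). The *Irf8* call was lost with normexp correction and with median centring. *Irf2*, which represses interferon targets, had -0.66 ± 0.11 (adjusted p = 0.00462) and missed the limit of 0.7. Of 14 sensors and adaptors 2 were higher in NZO: *Dhx58*, a cytoplasmic sensor of viral RNA (0.75 ± 0.11, adjusted p = 0.00249), and *Tlr9*, the endosomal receptor for DNA (0.72 ± 0.11, adjusted p = 0.00316). Both calls were lost with scan day as a fixed term, with normexp correction and in the deposited table. That of *Tlr9* was also lost with quantile normalization. None of the 4 genes that attach ISG15 to proteins or remove it was called. *Ube2l6*, the conjugating enzyme, had 0.52 ± 0.14 (adjusted p = 0.0371), and *Usp18*, the protease that removes ISG15, had 0.53 ± 0.20 (adjusted p = 0.124). *Uba7*, the activating enzyme, had 0.03 ± 0.15, and the probes of *Herc6*, the ligase, disagreed, with 0.66 ± 0.21 at the brighter and -0.26 ± 0.18 at the other.

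The relatives and chromosomal neighbours of the members differed in both directions, as the members did. Of 17 tested genes 4 were higher and 2 lower in NZO. *Ifit3b*, a close copy of *Ifit3*, was higher by 1.14 ± 0.20 (adjusted p = 0.00576), reading 1.59, 1.98, 1.55 and 1.88 in NZO and 0.25, 0.77, 1.04 and 0.38 in B6, and its second probe gave 1.12 ± 0.32 (adjusted p = 0.0526). *Ifit1bl2* had -0.13 ± 0.21. Because *Ifit3* and *Ifit3b* are near copies, their probes may each bind both transcripts. *Oas1a*, a synthetase of the 2-5A signal, was higher by 0.90 ± 0.13 (adjusted p = 0.00211) and by 0.85 at its second probe, whereas *Oasl1*, the closest relative of *Oasl2*, had 0.34 ± 0.20 (adjusted p = 0.311). *Oas1b*, *Oas1c*, *Oas2* and *Oas3* ranged from -0.70 to 0.27 over their tested probes and were not called, although the second *Oas1b* probe (-0.70), just short of the limit, was called lower in the deposited table (-0.91), with scan day (-0.84) or slide (-1.19) as a fixed term and without B6 mouse 009 (-0.92). *Cmpk2*, the neighbour of *Rsad2* on chromosome 12, gave -0.72 ± 0.21 (adjusted p = 0.0528) at its brighter probe and 0.27 ± 0.25 at the other, so its probes disagreed. The brighter *Cmpk2* probe was called lower with scan day as a fixed term, slide as a random block or B6 mouse 011 left out. The same held in the deposited table and among probes above background on all 8 arrays.

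Around *Ifi27l2b*, *Ifi27l2a* had -0.12 ± 0.13 (adjusted p = 0.618), and *Ifi27* had 0.66 ± 0.11 (adjusted p = 0.00544), with no overlap between the strains but short of 0.7. Around *Trim12a*, *Trim30d* (-1.67 ± 0.14, adjusted p = 0.000131) and *Trim5* were lower in NZO. *Trim5* was not well above background on any NZO array, and its bound is at least 1.61-fold lower. With normexp background correction its difference was -0.14 (adjusted p = 0.285), and the call was lost, as was that of *Trim30d* (-0.64). *Trim34a* was higher (1.00 ± 0.15, adjusted p = 0.00257), but 0.56 ± 0.22 (adjusted p = 0.133) at its second probe. *Trim12c* was called higher by its brightest probe (1.95 ± 0.18, adjusted p = 0.000195), but its other probes gave 0.67 and -0.55, so the gene has no single direction here. *Trim30a* had -0.55 ± 0.12 (adjusted p = 0.0198) and *Trim34b* 0.65 ± 0.28 (adjusted p = 0.168). In the processed signal the chromosome 7 cluster that holds *Trim12a* therefore had called genes on both sides. The lower calls of *Trim5* and *Trim30d* were lost with normexp correction, and that of *Trim5* also in the deposited table. Whether sequence differences between the strains under the *Trim5* probe affect its signal was not tested.

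**Figure D4:**
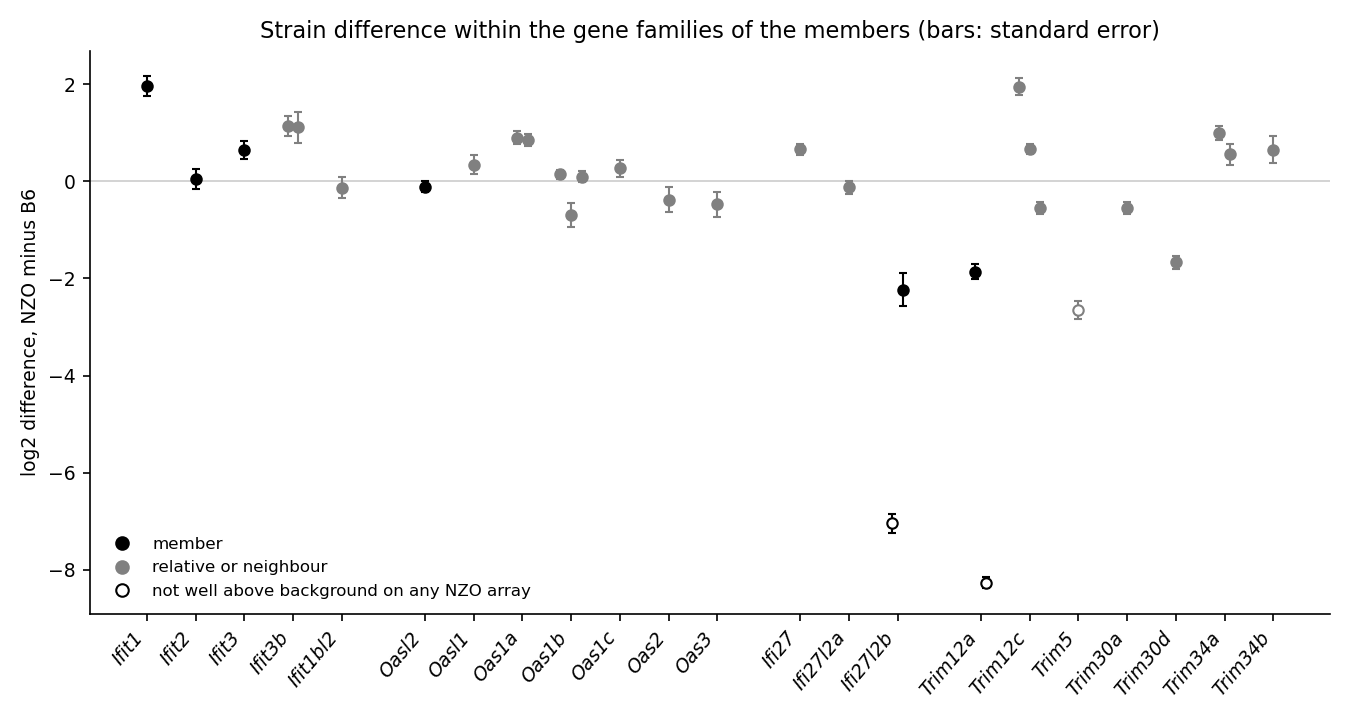
Log2 difference between NZO and B6 (vertical axis, bars give the standard error) of every tested probe in the families of *Ifit*, *Oas*, *Ifi27* and *Trim* genes, with members in black, relatives and neighbours in grey, and open symbols where the probe was not well above background on any NZO array. *Ifi27l2b* lies below its relatives *Ifi27* and *Ifi27l2a*, and the *Trim* genes lie on both sides of 0. Where the symbol is open, the plotted size depends on the handling of background.

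Of 46 other interferon-induced effectors tested, 3 were higher and 4 lower. *Mx1*, a dynamin-like protein that blocks influenza virus, read 2.15, 2.09, 1.996 and 2.13 in NZO and -0.53, -0.48, 0.09 and -0.91 in B6, a difference of 2.55 ± 0.19 (adjusted p = 7.77e-05). *Mx2*, its neighbour on chromosome 16, read -5.10, -5.43, -3.67 and -4.66 in NZO, above background on 1 of 4 arrays, and 1.20, 1.45, 1.55 and 1.07 in B6 (adjusted p = 1.68e-05). As 3 NZO arrays were at background, the size of the *Mx2* difference is not resolved: the means differed by -6.03 in the processed signal, by -2.49 with normexp correction and by -3.61 in the deposited table. The neighbours thus had opposite differences, with no overlap in either. Each gene has 1 probe, and whether sequence differences between the strains under these probes affect the signal was not tested. *Eif2ak2*, which encodes the RNA-dependent kinase PKR, was higher by 1.29 ± 0.09 (adjusted p = 6.1e-05), and *Ly6e*, a surface protein that restricts virus entry, by 0.95 ± 0.15 (adjusted p = 0.00439). *Trim21*, a cytoplasmic antibody receptor, was lower by -1.38 ± 0.11 (adjusted p = 8.36e-05). *Pnpt1*, a mitochondrial RNA exonuclease, had -0.80 ± 0.12 (adjusted p = 0.00322) at its brighter probe but -0.05 ± 0.15 (adjusted p = 0.853) at the other, so its probes disagreed. *Slfn2*, a Schlafen gene of immune cells, had -0.78 ± 0.18 (adjusted p = 0.0234). Its call was lost with normexp correction, with median centring and without the filter on dim probes. *Apobec3* and *Ms4a4c* were not called by their brightest probes (0.29 ± 0.12 and 0.09 ± 0.17). Dimmer probes of each were lower in NZO (-1.32 for *Apobec3*, -0.83 and -0.80 for *Ms4a4c*). The *Apobec3* probe at -1.32 was above background on 2 of 4 NZO arrays and the *Ms4a4c* probe at -0.80 on 3 of 4. The sizes of these 2 differences are therefore not resolved.

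Some markers of other cells differed between the strains, and others did not. Of 6 Kupffer cell markers, all tested, 3 were lower in NZO and 0 higher: *Clec4f* (-1.13 ± 0.13, adjusted p = 0.000853), *Marco* (-1.83 ± 0.36, adjusted p = 0.0113) and *Cd5l* (-0.71 ± 0.11, adjusted p = 0.00347). *Cd5l* was the brightest, and *Vsig4*, *Timd4* and *Adgre1* were not called, with all 6 differences negative. Their summed level, in units of the 75th percentile signal, was 96.1, 101, 87.0 and 88.9 in NZO and 166, 148, 198 and 140 in B6. It was the highest in B6 mouse 015, which was the highest B6 mouse for all 6 of these markers and for 12 of the 13 member probes. The lowest mice differed: B6 mouse 009 was the lowest for all 6 markers. B6 mouse 011 was the lowest for 11 of the 13 member probes and for 0 of the markers. The part of these cells in the values of the members was not tested. Of the 4 markers of all leukocytes 0 were called by their brightest probes, and their sum was 8.58 to 9.43 in NZO and 10.4 to 11.5 in B6, led by *Lcp1*, whose second probe was lower in NZO (-1.27 ± 0.14, adjusted p = 0.000479). Of the plasmacytoid dendritic cell markers 0 of 3 tested were called by their brightest probes. *Siglech*, the brightest gene, had -0.22, 0.23 and -1.87 at its 3 probes, the last of which was called. That probe was above background on 3 of 4 NZO arrays, so the size of its difference is not resolved. Of the T and NK cell markers 0 of 3 tested of 6 were called, and of the sinusoidal endothelial markers 0 of 5. *Cd79b*, of the B cell receptor, was lower (-0.73 ± 0.16, adjusted p = 0.0197) among 4 B cell markers. The *Cd79b* call was lost with normexp correction, median centring, scan day as a fixed term and without the filter on dim probes. Median centring also ended the call of *Cd5l*. *Ly6g* was higher (1.66 ± 0.18, adjusted p = 0.00055) among 4 neutrophil markers. The others were not called, with *S100a8* at -0.03 ± 0.49, *S100a9* at -0.20 ± 0.48 and *Retnlg* at -0.06 ± 0.25. Of 4 red blood cell genes *Hba-a1* (1.01 ± 0.22, adjusted p = 0.0181) and *Alas2* (0.90 ± 0.13, adjusted p = 0.0023) were higher in NZO. Both lost the call in the deposited table, and *Hba-a1* also without the filter on dim probes. Among the markers called by their brightest probes, *Ly6g* alone kept its call when slide entered as a fixed term, but the log2 differences there were -1.06 for *Clec4f*, -2.46 for *Marco*, -0.65 for *Cd5l*, -0.65 for *Cd79b*, 0.98 for *Hba-a1* and 1.06 for *Alas2*.

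The 3 tested markers of skeletal muscle had a summed level of 16.7 in NZO mouse 007 and 5.43 in B6 mouse 010, against 0.12 to 1.35 on the other 6 arrays. *Acta1* read 2.81 and *Myh4* 2.86 in NZO mouse 007, against -4.77 to -2.81 in the other NZO mice for both genes, and B6 mouse 010 stood at 0.66 and 1.66. Without NZO mouse 007, 6 member probes were at least 0.7 higher and 4 at least 0.7 lower in NZO, and 11 pathway genes were higher and 6 lower. Without B6 mouse 010 these counts were 5 and 4 member probes and 10 and 7 pathway genes.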

How the data were processed

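The authors deposited the scanner output of 8 arrays (4 NZO, 4 B6) and a table for the series. Intensity values come from Agilent's Feature Extraction, version 11.0.1.1 per the file headers (the submitters' processing notes name version 9.1), and the processed signal is background-subtracted within an array. The deposited table equalled the raw median intensity for all 59305 spots of each array (tolerance 0.01). Control and outlier spots were left out, log2 processed signals were reduced by the 75th percentile of the array, spots of a probe were averaged, and 27643 of 55681 probes, well above background on all 4 arrays of a strain, were tested. limma 3.58.1 (R 4.3.3) fitted all 8 arrays with Benjamini-Hochberg adjustment, after a check on simulated data. Tables and plots used Python 3.11.15, pandas 2.3.3, numpy 2.4.6 and matplotlib 3.10.9.

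Members and lists were chosen with earlier results of these data known. Named were every member probe, called pathway genes (up to 12 in each direction), tested relatives, receptor and signal genes, and called markers. The values of 1 listed gene are not reported here, and it is part of the counts of its list. Each listed gene was represented by its brightest tested probe. Of the probes, 27656 were named by accession, 3401 by symbol and 321 by synonym in the RefSeq gene table (GRCm38.p6), and 24303 kept the name of the files. Mouse numbers occur in both strains (009 and 011), and their deviations correlated by -0.26 and -0.00, so they were not taken as pairs. The number of arrays limits the precision. Alternatives were normexp correction (offset 50), quantile normalization, median centring, the deposited table, other filters, slide, scan day or mouse number as a term, the methods' t-test, unadjusted p, other choices of probe and leaving out each mouse.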

Additional observations from a re-analysis of the deposited data

Results flagged for a closer look

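In 6 of 122 groups of 4 mice examined, 1 mouse stood apart from the other 3 by more than a limit that chance passes in about 1 of 20 groups. None of the 13 member probes was among them. *Ly6e* read 6.67 in B6 mouse 015, above the other B6 mice. *Dhx58* read 1.47 in NZO mouse 007, below the other NZO mice, and *Trim21* read 1.31 in B6 mouse 011, above the others. The brightest *Oas1b* probe read 5.76 in B6 mouse 009 and the third *Trim12c* probe read -0.72 in B6 mouse 015. *Ifnar2* read 4.07 in NZO mouse 003, above the other NZO mice.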

How the results depend on the processing

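Under all alternatives run, *Isg15*, *Ifit1*, *Ifit3*, *Rsad2*, *Ifi44* and *Irf7* stayed above 0 and *Trim12a* and *Ifi27l2b* below 0, while *Ifit2* ranged from -0.16 to 0.47 and *Oasl2* from -0.31 to 0.06. In the deposited table, neither background-subtracted nor scaled between arrays, 3 member probes were at least 0.7 higher in NZO. There 576 probes and 5 pathway genes were higher, and the median of all probes fell from 0.02 to -0.15, with *Ifi44* at 0.45 and *Irf7* at 0.14. Restricting to probes above background on all 8 arrays left 1 member probe at least 0.7 lower, a member median of 0.71 and 958 probes lower, since the dim probes drop out by construction. With normexp correction 618 probes were higher and 577 lower, and 3 pathway genes were lower. The slide as a fixed term gave 504 probes and 3 pathway genes higher, and the methods' t-test, adjusted, gave 886 probes lower. At the thresholds of the methods that test called 1296 probes higher and 1603 lower, and 9 and 8 pathway genes. The mouse number as a replicate block, although only 2 numbers are shared, gave 72 probes higher and 134 lower, 1 pathway gene higher (*Mx1*) and 0 lower. The strain difference of that fit comes from mice 009 and 011 alone, so its counts rest on 2 mice of each strain. Leaving out each mouse in turn gave 4 to 6 member probes at least 0.7 higher and 4 lower, a member median of 0.30 to 0.47, and 8 to 11 pathway genes higher and 5 to 7 lower. The number of member probes highest in NZO mouse 003 was 2 with normexp correction, 1 with quantile normalization, 9 with median centring and 1 in the deposited table. *Slfn2*, *Irf8*, *Tlr9*, *Cd5l*, *Cd79b* and *Hba-a1* lost their call when some single mice were left out. Of the values of single probes under an alternative, 1018 kept their side of the threshold or moved by less than the replicate SD, 82 lost a call, 20 gained one, 26 moved by more, and 0 called values reversed. Signal over background limits what dim probes can show.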
